A study of Homo sapiens with 6 samples.

Results

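The cytosolic ribosomal protein genes were followed after knockdown of IGF2BP1 in SAS cells, an established human line grown from a squamous tumour of the tongue. Members were the protein-coding genes outside the Y chromosome whose symbol begins with RPL or RPS and a digit, plus RPLP0, RPLP1, RPLP2 and RPSA. The ribosomal S6 kinases and RPS19BP1, which are not ribosomal proteins, were left out. The rule took 88 of the 62700 genes in the count table, 55 for the large subunit and 33 for the small subunit. They lie on 21 chromosomes, 12 of them on chromosome 19. No measured value entered the rule. Of the 88 members, 83 had enough reads to be tested, 51 large and 32 small.

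Poly(A) RNA was sequenced from 3 libraries of cells given a control siRNA (siC) and 3 libraries of cells given an siRNA against IGF2BP1 (siIGF2BP1). All 6 libraries came from the same line, whose genotype is labelled wild type, and the time of harvest is not given in the sources used here. IGF2BP1 binds RNA and protects many of its target mRNAs from decay, and the study's title places it upstream of YAP1-driven expression. The siRNA sequence is not given in the sources used here, nor is whether the replicates were separate cultures, so a p-value here is set against library-to-library spread that could be technical in part or whole.

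IGF2BP1 itself (ENSG00000159217) was depleted in all 3 knockdowns. The controls held 185, 223 and 292 reads and the knockdowns 29, 25 and 21 reads. This is 9.64 ± 1.55 CPM in controls and 1.16 ± 0.399 in knockdowns (SD, n = 3), a log2 fold change of -3.07 (SE 0.30, adjusted p = 4.56e-06, edgeR quasi-likelihood test). Throughout, CPM (the read count scaled to library size) includes the TMM factors of edgeR, fold changes are knockdown over control on the log2 scale, and a gene counts as called, or as having risen or fallen, where its adjusted p was below 0.05. Depth ran from 17918496 reads in knockdown 1 to 26675064 reads in control 3. Among cell type markers, the squamous list, which includes keratin 5 and E-cadherin, summed to between 10983 and 11774 CPM without scaling in the controls and between 7430.2 and 8263 in the knockdowns. Of its 10 genes 4 fell, and none rose in edgeR, DESeq2 or limma-voom (1 was higher at an unadjusted p under 0.05). The leukocyte marker PTPRC, the melanocyte markers MLANA and TYR and the fibroblast markers COL3A1, DCN and LUM had 0 reads in all 6 libraries. Other genes of these lists had reads. Summed in the same way, the leukocyte list reached 16.7 to 17.8 CPM in controls and 12.9 to 14.1 in knockdowns. The fibroblast list reached 5.45 to 7.53 and 4.36 to 7.81, and the melanocyte list 3.87 to 4.57 and 3.78 to 5.02. The endothelial list, with 0 genes lacking reads, reached 6.13 to 7.24 and 6.58 to 13.7.

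Each cytosolic ribosome holds a single copy of nearly every ribosomal protein, in a small subunit that reads the mRNA and a large subunit that joins amino acids. The exceptions are the acidic proteins P1 and P2, which are bound as dimers to P0 and form the stalk that recruits translation factors. Most of these genes are expressed strongly in dividing cells, and their mRNAs begin with a 5′ terminal oligopyrimidine (TOP) tract, a C followed by an unbroken run of C and T bases. Through this tract, and through the binding protein LARP1, the growth-controlling kinase complex mTORC1 regulates their translation together. Excess ribosomal proteins that are not built into subunits are degraded, and some, such as RPL5 and RPL11, bind MDM2 and raise p53.

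The start of the transcript shows this shared feature. Annotated start sites were read from the RefSeq promoter table (GRCh38.p14), which matched 70 of the 88 members. A C followed by at least 4 pyrimidines (C or T), read on the transcribed strand and beginning within 10 bases of the start, was found in 58 of 70 members (82.9%). It was found in 34.0% of the protein-coding genes in the table and in 33.3% of all its genes. The share was 80.0% in the large and 88.0% in the small subunit, 12 of 16 in other TOP genes and 31.9% in 69 mitochondrial ribosomal protein genes. A match describes letters in this window and does not show where transcription began in SAS cells.

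The windows below hold 15 bases before and 15 bases from the annotated start onward, with the pyrimidine run in capitals. They are shown for RPL10, the stalk genes and RPS21. Of these, RPL10, RPLP1, RPLP2 and RPS21 carry lower values described below, and RPLP0 stood at -0.13. RPL7L1 and RPS27L, which had the largest positive fold changes and no such run, are shown as well. The choice does not describe the other members: RPL36A, at 0.29, has a run of 10 bases, and RPS29, at -0.47, has none. Whether the run goes with the fold change was not tested. RPL10 is at chrX:154398050-154398079 (plus strand), RPLP0 at chr12:120201097-120201126 (minus), RPLP1 at chr15:69452803-69452832 (plus), RPLP2 at chr11:809952-809981 (plus), RPS21 at chr20:62387088-62387117 (plus), RPL7L1 at chr6:42879601-42879630 (plus) and RPS27L at chr15:63157463-63157492 (minus).
RPL10: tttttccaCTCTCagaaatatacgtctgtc
RPLP0: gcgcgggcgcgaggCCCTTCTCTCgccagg
RPLP1: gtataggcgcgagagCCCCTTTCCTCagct
RPLP2: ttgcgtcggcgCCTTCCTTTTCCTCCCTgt
RPS21: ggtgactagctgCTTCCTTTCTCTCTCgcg
RPL7L1: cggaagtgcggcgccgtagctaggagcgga
RPS27L: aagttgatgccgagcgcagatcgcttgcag
The runs of RPLP2 (17 bases) and RPS21 (15 bases) are long, and that of RPL10 (5 bases) is at the minimum searched for and lies before the annotated start.

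Knockdown 1 stood furthest apart in these genes and bears on all results that follow. Reads on members made up 12.5%, 13.6% and 13.2% of the 3 control libraries, and 10.8%, 14.5% and 13.9% of the 3 knockdown libraries. Knockdown 1 was thus below every control, while knockdowns 2 and 3 were above every control. The group means were 13.1% ± 0.558 and 13.1% ± 1.99 (SD, n = 3), so the total share did not differ beyond the spread between libraries. Of the 83 tested members, 65 had their lowest level of all 6 libraries in knockdown 1, namely 38 of 51 large and 27 of 32 small subunit genes. Within the knockdown group, 78 members (94.0%) were lowest in knockdown 1, against 20.7% of the other genes at 100 CPM or more in controls. Control 1 showed a similar lean: within the control group, 52 members (62.7%) were lowest there, against 14.3% of those other genes. Relative to the control mean, the median member of knockdown 1 stood at -0.42 on the log2 scale. The low level there was not particular to members. The median mitochondrial ribosomal protein gene stood at -0.26 in knockdown 1, and at -0.03 and -0.04 in knockdowns 2 and 3. Knockdown 1 was also the shallowest library, and the part of depth or library preparation in its levels was not tested.

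**Figure D1:**
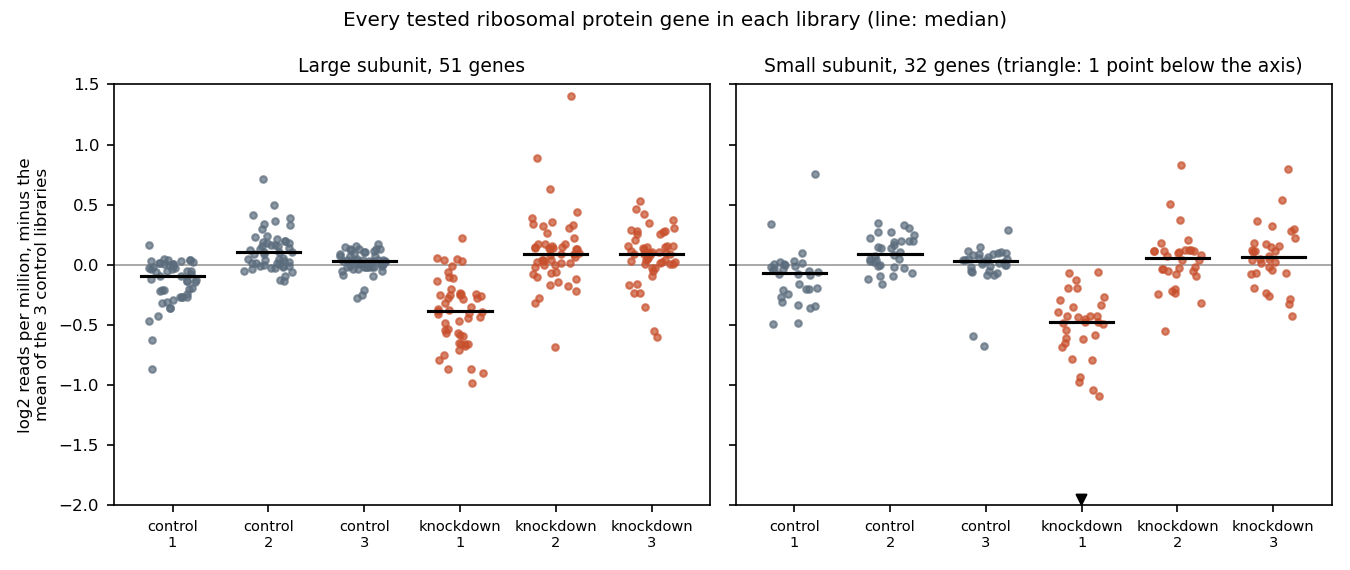
Each point is 1 tested ribosomal protein gene in 1 library, as log2 CPM minus its mean over the 3 controls, for the large (left) and small (right) subunit, with the median as a line. Knockdown 1 lies below the other libraries, with medians of -0.38 and -0.48, while the medians of knockdowns 2 and 3 lie between those of controls 3 and 2.

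In the fit over all 6 libraries, 3 of 83 tested members fell and 0 rose. All 3 that fell belong to the large subunit: RPL10, RPLP1 and RPLP2. Over all 14649 tested genes 6.66% fell and 6.27% rose, beside 3.61% and 0% of the tested members. At an unadjusted p under 0.05, 8 members were lower and 2 higher, beside 1840 and 1920 of all tested genes. DESeq2 called 6 lower and 0 higher, beside 1212 and 1034 over all tested genes. With limma-voom 5 were lower and 0 higher, beside 968 and 866. The knockdown libraries lay wholly below the controls for 10 members (background 15.1%) and wholly above for 3 (background 15.5%).

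Most members changed little. The log2 fold change lay within 0.25 of zero on either side for 67 of 83, the median was -0.09, and 59 were negative and 24 positive. The median over all tested genes was 0.03. The 1995 other genes at 100 CPM or more in controls, which are closer to members in level, had a median of -0.07, and 19.2% of them fell and 7.62% rose. Without knockdown 1, the medians turned positive, from -0.07 to 0.07 in the large and from -0.12 to 0.05 in the small subunit. Without a scaling factor the median of the large subunit was 0.02 and that of the small subunit -0.04. Because the libraries hold bulk RNA scaled to its total, a change in all mRNA per cell, or in the mixture of cells, cannot be told apart from a change in these genes.

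**Figure D2:**
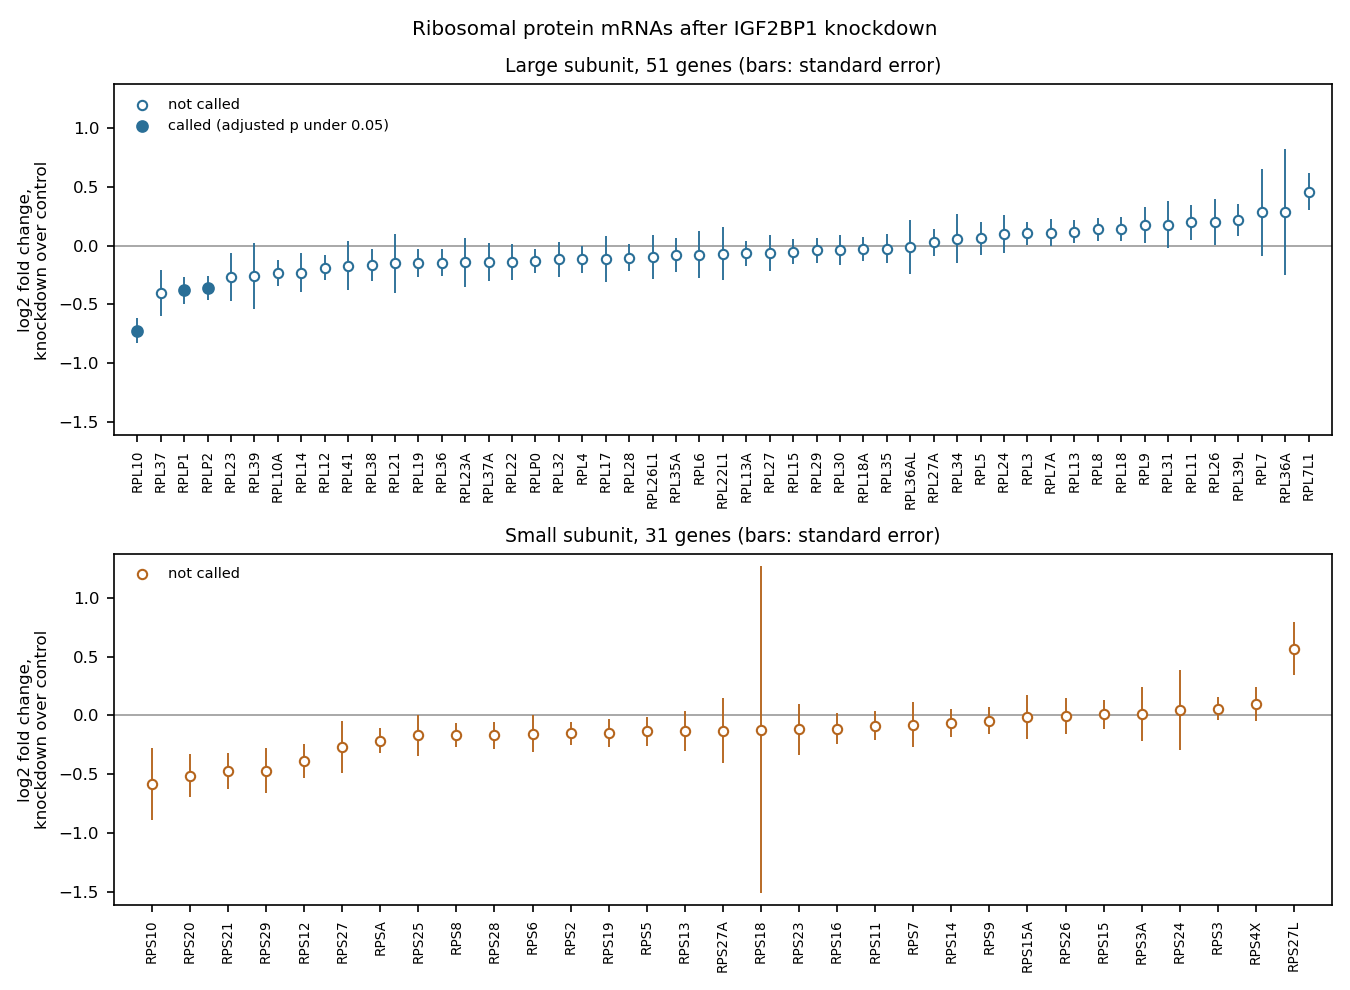
Log2 fold changes (knockdown over control) of the 51 large and 31 of the 32 small subunit genes tested, with standard errors from the edgeR fit. Filled points mark RPL10, RPLP1 and RPLP2, the genes that passed the test, and RPS18 has the widest error bar.

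RPL10 had the largest fall. The protein is among the last to join the large subunit and lies close to its catalytic centre. The gene (ENSG00000147403) is on chromosome X, 154389955 to 154409168, plus strand (GRCh38, GENCODE 29). Controls stood at 2862, 2892 and 2984 CPM and knockdowns at 1556, 1815 and 1923 CPM. All 3 knockdowns lay far below all 3 controls. The means were 2913 ± 63.8 and 1765 ± 189 CPM (SD, n = 3), 39.4% lower, with a log2 fold change of -0.72 (SE 0.10, adjusted p = 0.000203, edgeR). Without knockdown 1 it was -0.64 (adjusted p = 9.45e-05), and it was called in all 16 alternative fits.

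Reads on RPL10 could be shared with other rows of the table. Of the bases in its annotated exons, 52.7% also lie in exons of genes on the opposite strand, 34.2% in those of DNASE1L1. In its mature transcript 46.7% of the bases are shared with opposite-strand genes. The strand setting of the counting is not given in the sources used here. DNASE1L1, a DNase I relative, held 466, 395 and 530 reads in controls and 462, 617 and 887 in knockdowns, where it was called higher (log2 fold change 0.58, SE 0.16, adjusted p = 0.0226, edgeR). That call was lost without any 1 control or without knockdown 3. Of the 19 pseudogenes of RPL10, RPL10P16 and RPL10P9 were called lower, as the gene was. They were named after their values were seen and do not describe the other copies. The copy RPL10P16 stood at 172, 120.2 and 147 CPM in controls and 78.4, 93.4 and 95.6 in knockdowns (log2 fold change -0.72, adjusted p = 0.00152, edgeR). The log2 fold change of the copy RPL10P9 was -0.57 (SE 0.18, adjusted p = 0.0406, edgeR), a call lost without any 1 library other than control 2. All copies together held 5.50% of the reads on RPL10 and its copies. Whether such rows hold reads from RPL10 itself was not tested.

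The stalk genes followed. RPLP1 (ENSG00000137818, chromosome 15, 69452784 to 69456194) codes for P1. It stood at 3252, 3211 and 3239 CPM in controls and 2045, 2673 and 2747 CPM in knockdowns, with no overlap. It was 23.1% lower (log2 fold change -0.38, SE 0.11, adjusted p = 0.0383, edgeR). RPLP2 (ENSG00000177600, chromosome 11, 809647 to 812880) codes for P2, the partner of P1. It stood at 1421, 1396 and 1336 CPM in controls and 955, 1107 and 1172 CPM in knockdowns, again with no overlap. It was 22.1% lower (log2 fold change -0.36, SE 0.10, adjusted p = 0.0289, edgeR).

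Both stalk calls were lost in some fits that left out 1 library. The call of RPLP1 was lost without knockdown 1 (log2 fold change -0.26, adjusted p = 0.0503). It was also lost without any 1 control, where the log2 fold change lay between -0.41 and -0.39 (adjusted p between 0.0791 and 0.11). It held in 9 of 16 alternative fits. The call of RPLP2 held without knockdown 1 (log2 fold change -0.28, adjusted p = 0.0412) and in 11 of 16 fits. It was lost without any 1 control, where the log2 fold change lay between -0.40 and -0.37 (adjusted p between 0.0608 and 0.0929). Leaving out a control thus cost the calls without making either fold change smaller. Neither was called without a scaling factor or without both libraries numbered 1. In every fit the fold change of both was negative.

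RPLP0 codes for P0, which anchors the P1 and P2 dimers and is often used as a reference gene. It stood at 5586, 5516 and 5742 CPM in controls and 4643, 5078 and 5645 CPM in knockdowns. The highest knockdown lay among the controls, and the log2 fold change was -0.13 (SE 0.10, 95% interval -0.35 to 0.08, adjusted p = 0.466, edgeR). It was -0.07 without knockdown 1 and -0.21 without knockdown 3. Whether RPLP1 and RPLP2 differed from RPLP0 in their response was not tested.

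**Figure D3:**
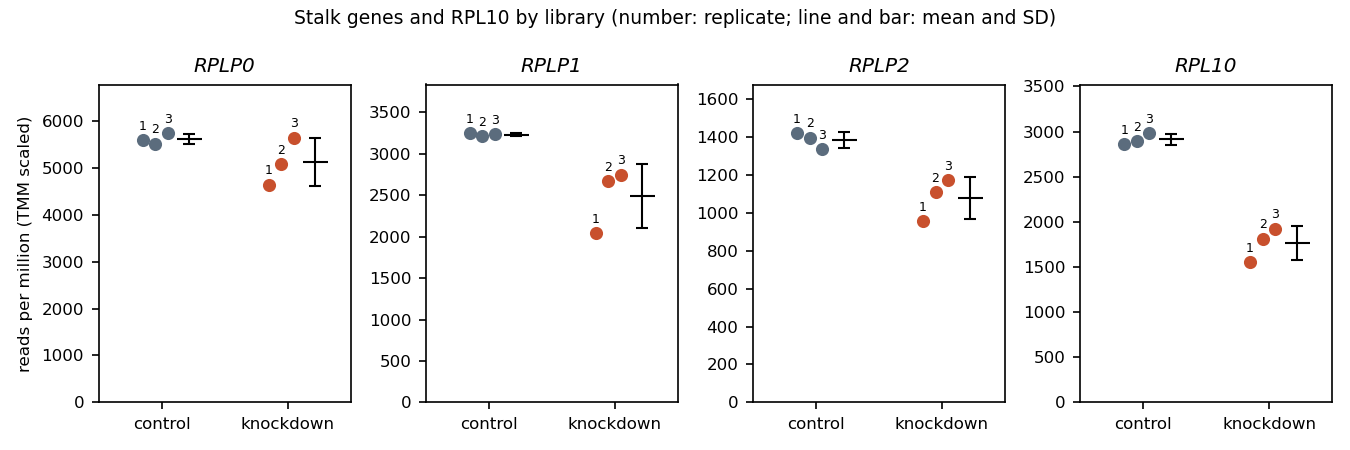
TMM-scaled CPM of RPLP0, RPLP1, RPLP2 and RPL10 in each library, numbered by replicate, with the mean and SD of each group. The knockdown libraries lie below all controls for RPLP1, RPLP2 and RPL10, and for RPLP0 knockdown 3 (5645 CPM) reaches the control range.

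In the rest of the large subunit no gene passed the test over all 6 libraries. RPL37, a zinc-binding protein, had a log2 fold change of -0.41 (SE 0.20, adjusted p = 0.232, edgeR), and its groups overlapped. The value was -0.22 without knockdown 1, -0.25 without control 2 and -0.63 without knockdown 2 (adjusted p = 0.403, 0.601 and 0.0864). RPL10A and RPL12 had knockdowns wholly below controls, with log2 fold changes of -0.23 and -0.19 (adjusted p = 0.194 and 0.296, edgeR), and -0.14 and -0.10 without knockdown 1. RPL3, a core protein near the catalytic centre, and RPL8 had knockdowns wholly above controls. RPL3 stood at 4430.4, 4585 and 4419.6 CPM in controls and 4596, 4687 and 5176 CPM in knockdowns, a log2 fold change of 0.11 (SE 0.10, adjusted p = 0.553, edgeR). It was 0.05 without knockdown 3. RPL8 had a log2 fold change of 0.14 (SE 0.10, adjusted p = 0.416, edgeR), and 0.07 without knockdown 2. RPL36A, the third of the largest positive values at 0.29, rested on 19 to 92 reads per library (SE 0.54, adjusted p = 0.797, edgeR).

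Leaving out knockdown 1 changed which large subunit genes passed. RPL11, RPL31, RPL9 and RPL7L1, and RPS27L of the small subunit, were then called higher. Over all tested genes 807 were higher in that fit, beside 918 (6.27%) in the fit over all 6 libraries. RPL11, the MDM2-binding protein, had a log2 fold change of 0.20 over all libraries (adjusted p = 0.463, edgeR) and 0.36 without knockdown 1 (adjusted p = 0.0421). RPL31 went from 0.18 to 0.40 (adjusted p = 0.645 and 0.0166, edgeR), and RPL9 from 0.17 to 0.36 (adjusted p = 0.527 and 0.0203, edgeR). Without control 1 the values of RPL11, RPL31 and RPL9 were 0.06, 0.05 and 0.07, and without knockdown 3 they were 0.11, 0.01 and 0.03. These 3 genes were named after their values were seen.

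No small subunit gene passed the test over all 6 libraries. At an unadjusted p under 0.05, 4 of 32 were lower and 1 higher, beside 1840 and 1920 of all 14649 tested genes. DESeq2 called 3 lower and limma-voom 2, beside 1212 and 968 over all tested genes. The negative values of 25 of 32 genes were led by RPS10, RPS20, RPS21 and RPS29. RPS20, which lies on the head of the subunit, stood at 1454, 1918 and 1713 CPM in controls and 819.6, 1353 and 1385 CPM in knockdowns, with no overlap (log2 fold change -0.52, SE 0.18, adjusted p = 0.0962, edgeR). Without knockdown 1 it was -0.31 (adjusted p = 0.0691). It was called without knockdown 3, at -0.65 (adjusted p = 0.0368), and without both libraries numbered 1, at -0.41 (adjusted p = 0.014).

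RPS21, among the smaller proteins of the subunit, stood at 1577, 1795 and 1539.7 CPM in controls and 853, 1387 and 1300.4 CPM in knockdowns, with no overlap. Its log2 fold change was -0.47 (SE 0.15, 95% interval -0.79 to -0.15, adjusted p = 0.0527, edgeR), just outside the threshold, and DESeq2 and limma-voom called it. Without knockdown 1 it was -0.29 (adjusted p = 0.0546). RPS29, a zinc-binding protein of the head, had a log2 fold change of -0.47 (SE 0.19, adjusted p = 0.144, edgeR) and -0.24 without knockdown 1. Its groups did not overlap either. RPS12 had a log2 fold change of -0.39 (SE 0.15, adjusted p = 0.104, edgeR), and its groups overlapped. It was at -0.22 without knockdown 1 (adjusted p = 0.209).

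RPS10 had the most negative value of the small subunit, at -0.58 (SE 0.31, adjusted p = 0.253, edgeR), on few reads. It held 255, 137 and 114 reads in controls and 89, 103 and 128 in knockdowns. Control 1 alone set the controls apart, and without control 1 the value was -0.14 (adjusted p = 0.837). RPSA, a surface protein of the small subunit also known as the laminin receptor, stood at 4221, 4225 and 4404 CPM in controls and 3181, 3732 and 4163 CPM in knockdowns. Its groups did not overlap, and it did not pass the test (log2 fold change -0.21, SE 0.11, adjusted p = 0.234, edgeR). Without knockdown 1 its value was -0.12 (adjusted p = 0.429).

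The subunits were compared by the ratio of their reads. Large subunit reads were 1.62, 1.56 and 1.60 times small subunit reads in controls and 1.69, 1.65 and 1.68 times in knockdowns. The groups did not overlap, with means of 1.59 ± 0.0277 and 1.67 ± 0.0169 (SD, n = 3), and no test was made of this summed value. Without RPS2, RPS20, RPL8 and RPL7A, the ratios were 1.80, 1.74 and 1.76 in controls and 1.86, 1.77 and 1.76 in knockdowns, which overlap. These 4 genes were chosen after their values were seen, and each of them raised the ratio, so the smaller difference of 0.0318, against 0.081, follows from the choice. The medians of the log2 fold changes, -0.07 for the large and -0.12 for the small subunit, differed by 0.06. Taken library by library relative to the control mean, the median of the large subunit minus that of the small was -0.02, 0.01 and -0.004 in controls and 0.09, 0.03 and 0.03 in knockdowns. Knockdown 1 had the highest value, and the groups did not overlap. No test was made of this difference, and between the medians of the fold changes it was 0.02 without knockdown 1 and 0.02 without control 2. Centring each gene on the controls holds the control values close together. Without that centring, the large minus small difference in median log2 CPM had an SD between libraries of 0.196.

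Several members have a close relative that can take a place in the ribosome or is restricted to certain tissues. RPS27L, a p53-inducible relative of RPS27, stood at 8.98, 11.8 and 10.4 CPM in controls and 9.90, 18.3 and 17.9 CPM in knockdowns. Knockdowns 2 and 3 were above all controls and knockdown 1 was among them. It was not called (log2 fold change 0.57, SE 0.23, adjusted p = 0.119, edgeR), and without knockdown 1 it was called, at 0.80 (adjusted p = 0.0146). RPS27 itself was far more abundant, at 1425 ± 78.3 CPM in controls and 1182 ± 399 in knockdowns, a log2 fold change of -0.27 (SE 0.22, adjusted p = 0.503, edgeR), and -0.02 without knockdown 1.

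RPL7L1, a relative of RPL7 that acts in ribosome assembly, stood at 73.7, 78.6 and 74.5 CPM in controls and 88.4, 139.5 and 84.0 CPM in knockdowns. Every knockdown lay above every control, with knockdown 2 highest, but it did not pass the test (log2 fold change 0.46, SE 0.16, adjusted p = 0.0758, edgeR). It was called without knockdown 1 (0.56, adjusted p = 0.0472) and without knockdown 3 (0.59, adjusted p = 0.0356). Without knockdown 2 it was 0.16 (adjusted p = 0.432). RPL7 ranged from 194 to 423 CPM in controls and from 251 to 464 in knockdowns (log2 fold change 0.28, SE 0.37, adjusted p = 0.71, edgeR), so its spread was wide in both groups.

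The other pairs gave no call. RPL22L1 and RPL22 stood at 88.4 ± 15.4 and 79.0 ± 17.3 CPM in controls, with log2 fold changes of -0.07 and -0.14. RPL26L1 and RPL26 stood at 30.5 ± 3.88 and 17.3 ± 4.11 CPM in controls, with log2 fold changes of -0.09 and 0.20. RPL36AL stood at 46.0 ± 12.7 CPM in controls (log2 fold change -0.01), and its counterpart RPL36A at 1.67 ± 0.833 CPM. With the reads of its copies added, RPL36A reached 72.5, 88.0 and 96.9 CPM without scaling in controls. Which of these 2 genes is the more abundant therefore depends on how reads were assigned. RPL39L, known from the testis and from tumours, stood at 32.1 ± 2.41 CPM in controls (log2 fold change 0.22), against 350 ± 63.9 for RPL39 (log2 fold change -0.25). RPS4X stood at 1168 ± 179 CPM in controls (log2 fold change 0.10). The muscle paralog RPL3L held 9, 4 and 0 reads in controls and 9, 0 and 2 in knockdowns, and the testis paralog RPL10L 1 read in all, so neither was tested.

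Levels between members were compared per kilobase of gene length, as CPM without scaling, divided by length, in controls. With the length given in the deposited table, RPS2 (3939 ± 131), RPL8 (3320.2 ± 29.7) and RPS12 (1891 ± 273) were highest, and RPL36A (0.410 ± 0.206), RPS27L (1.15 ± 0.165) and RPS10 (2.98 ± 1.46) lowest. The deposited length was between 1.20 and 58.6 times the coding length, so the order depends on it. Per kilobase of coding sequence, RPL41 (20754 ± 3474), RPS2 (10702 ± 357) and RPL8 (9297 ± 83.2) were highest, and RPL36A (5.12 ± 2.57), RPS10 (14.0 ± 6.83) and RPL17 (27.4 ± 7.35) lowest. RPL41 codes for the shortest of these proteins, and its spread does not reach the range of RPS2. Among the 50 genes with the most reads in the table, 21 were members.

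Some low levels were of genes that share sequence. RPS10, RPL36A, RPL17 and RPL26 share at least 50% of their transcript with another gene on the same strand, such as the read-through genes RPS10-NUDT3, RPL36A-HNRNPH2 and RPL17-C18orf32. These 4 stood between 1.67 and 17.3 CPM in controls, where the median over the tested members was 1151 CPM. The read-through genes, which the rule also takes as members, held 0 reads in every library and were not tested. How the authors treated reads that fall on 2 genes is not given in the sources used here, so the levels of these 4 genes are uncertain.

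The table holds 1599 pseudogenes of members, most of them processed copies. In 4 tested members over 50% of the reads on the gene and its copies were listed under copies: RPL36A (98.0%), RPL17 (73.9%), RPS18 (65.9%) and RPS10 (65.5%). Adding the reads of copies to the parent left 3 members lower and 0 higher.

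RPS18, a protein of the subunit head, had very uneven reads between libraries. It held 5892, 5969 and 3331 reads in controls and 70, 6614 and 7739 reads in knockdowns, so knockdown 1 lay far below every other library. Its copy RPS18P12 held 9003, 7623 and 7473 reads in controls and 4787, 8087 and 8016 in knockdowns, at 263 CPM the lowest in knockdown 1 but by far less. The copy RPS18P5 stood at 73.7, 79.5 and 66.8 CPM in controls and 111, 119 and 81.2 CPM in knockdowns, and was called higher (log2 fold change 0.50, SE 0.14, adjusted p = 0.0224, edgeR). That call was lost without any 1 library other than knockdown 3. The log2 fold change of RPS18 was -0.12 with an SE of 1.39, and 0.45 without knockdown 1. RPS18 and all its copies together stood at 698, 649 and 471 CPM without scaling in controls and 384, 814 and 690 in knockdowns. The cause of the low RPS18 count in knockdown 1 was not tested.

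**Figure D4:**
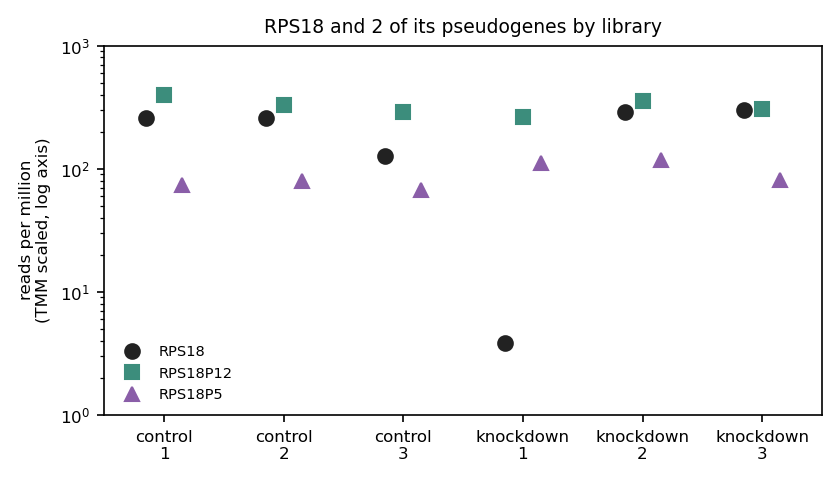
TMM-scaled CPM of RPS18 and its processed copies RPS18P12 and RPS18P5 in the 6 libraries, on a log axis. RPS18 drops to 3.85 CPM in knockdown 1 from a range of 128 to 297 CPM elsewhere, and both copies stay between 66.8 and 395 CPM.

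The shift of the libraries numbered 1 ran with base composition across members. Over 82 members at 5 CPM or more, the difference of control 1 from controls 2 and 3 went with the GC content of the coding sequence (Pearson r 0.67, Spearman rho 0.81). For knockdown 1 against knockdowns 2 and 3 the values were 0.20 and 0.58, and without RPS18 and RPS10 they were 0.60 and 0.59. These correlations are across genes of the same libraries, which are not independent, and describe those libraries only. Over 7384 other genes at the same level the Pearson values were 0.57 and 0.48. In the 41 members below the median GC content of 50.8%, the median difference was -0.33 for control 1 and -0.67 for knockdown 1. In the 41 members above it the medians were -0.002 and -0.31. The knockdown fold change itself showed little relation to GC content (r -0.16, rho -0.13). The part of base composition in the level of any member was not tested.

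**Figure D5:**
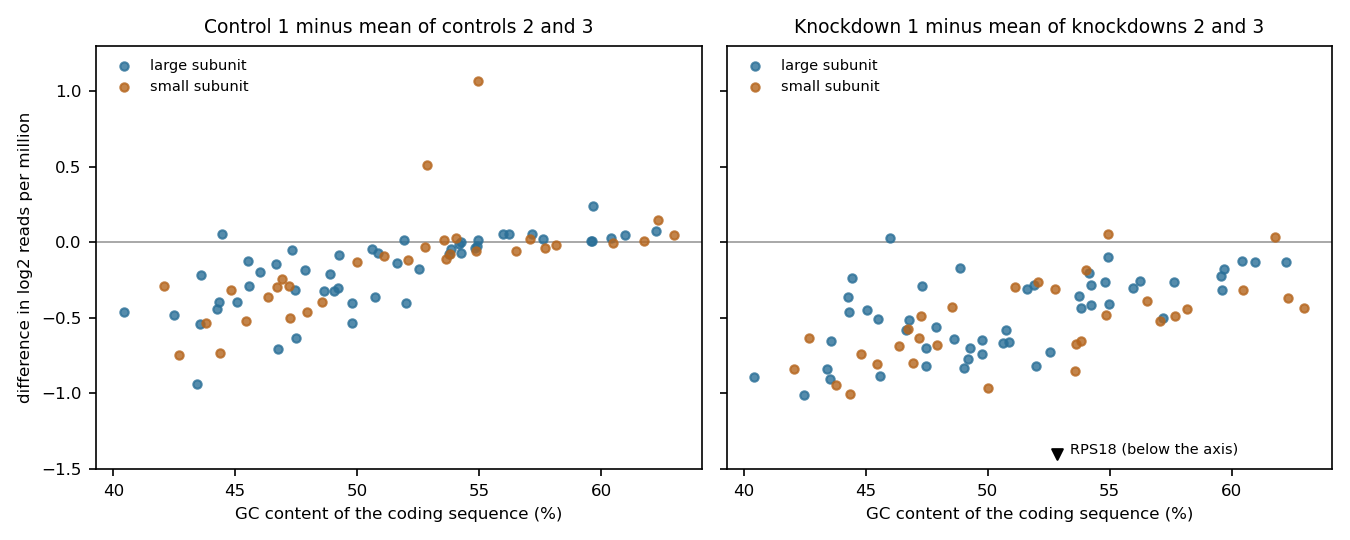
Difference in log2 CPM between the library numbered 1 and the mean of the other 2 of its group, for controls (left) and knockdowns (right), against the GC content of each member's coding sequence in percent. In each panel 40 of the 41 members of lower GC content lie below zero, and RPS18, at -6.08 in knockdown 1, lies below the axis.

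The rule leaves out some ribosomal proteins by name, and FAU and RACK1 are given for comparison. Neither was called by edgeR, DESeq2 or limma-voom. FAU, a small subunit protein made as a fusion with a ubiquitin-like protein, had -0.12 (SE 0.13, adjusted p = 0.599, edgeR). RACK1, a scaffold on the small subunit, stood at 2934 ± 232 CPM in controls and 3002 ± 383 in knockdowns, a log2 fold change of 0.03.

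Of 21 other tested TOP genes, which include elongation factors, 1 fell and 0 rose, with a median log2 fold change of 0.004. None was higher at an unadjusted p under 0.05 in edgeR, or called higher by DESeq2 or limma-voom. The gene that fell was SNHG1, a noncoding host of small nucleolar RNAs, at 80.5, 101 and 72.3 CPM in controls and 50.1, 44.5 and 51.8 in knockdowns, with no overlap (log2 fold change -0.79, SE 0.13, adjusted p = 0.000741, edgeR). Of 20 tested genes that control TOP translation, 2 rose and 0 fell in edgeR (1 was lower at an unadjusted p under 0.05, and 0 by DESeq2 and limma-voom). EIF4EBP2, an inhibitor of the cap-binding factor eIF4E that mTORC1 switches off, stood at 52.1, 53.7 and 58.1 CPM in controls and 104, 98.5 and 97.6 in knockdowns, with no overlap (log2 fold change 0.87, SE 0.11, adjusted p = 4.96e-05, edgeR). PDCD4, an inhibitor of the helicase eIF4A, rose from 3.59 ± 0.363 to 6.90 ± 2.34 CPM (log2 fold change 0.94, adjusted p = 0.0345, edgeR). That call was lost without any 1 control or without knockdown 2 (0.60, adjusted p = 0.207). None of the 18 tested chaperones and escorts of ribosomal proteins passed the test (at an unadjusted p under 0.05, 1 lower and 3 higher, with 0 called by DESeq2 and by limma-voom). None of the 19 tested genes of ribosome quality control did so either (1 lower and 1 higher unadjusted, with 1 called lower by DESeq2 and 0 by limma-voom).

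The mitochondrial ribosomal proteins, which are coded in the nucleus and build a separate ribosome, gave 5 lower and 1 higher of 76 tested, with a median of -0.13. The lower share was 6.58%, beside 6.66% of all tested genes. MRPS30 stood at 43.9, 44.1 and 47.2 CPM in controls and 24.1, 30.5 and 26.9 in knockdowns, with no overlap (log2 fold change -0.73, adjusted p = 0.00157, edgeR). MRPL21, MRPL36 and MRPL16 had log2 fold changes of -0.55, -0.44 and -0.43 (adjusted p = 0.00655, 0.0128 and 0.0198, edgeR). MRPS24, the gene that rose, went from 3.88 ± 0.608 to 7.80 ± 0.659 CPM (log2 fold change 1.00, adjusted p = 0.0106, edgeR). The calls of MRPL36, MRPL16 and MRPS24 were lost without control 2, and that of MRPL16 also without control 3.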

How the data were processed

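The authors deposited a table of unnormalized read counts for each gene in each library, with a gene length in bases. The submitters' processing notes name the build hg38 and the tools featureCounts 2.0.0, HISAT2 2.1.0, cutadapt 2.8 and SAMtools 1.10. Annotation release, strand setting and handling of multi-mapped reads: not given in the sources used here. Per the labels' protocols the libraries were strand-marked (dUTP) and made from oligo-dT-selected mRNA. Columns were matched to samples by library name, and 0 columns were left unused.

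Genes passing filterByExpr (minimum count 10, minimum total 15) were fitted with edgeR 4.0.16 (R 4.3.3) using TMM factors, robust dispersion, glmQLFit and glmQLFTest on 3 against 3 libraries, with no covariate and Benjamini-Hochberg adjustment over all 14649 tested genes. The script was tested on simulated data. Replicates of a group differed by more than sampling noise (chi-square per degree of freedom 14.6 to 36.2, in genes where both libraries together held 20 reads or more), so none was counted as a copy. Depth is given by the read totals, and 3 reads correspond to 0.112 to 0.167 CPM.

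Coordinates, coding sequences and exon overlaps came from GENCODE 29 (GRCh38, also called hg38), which matched 88 of 88 members. Library shifts used log2 CPM with a pseudocount of 0.5. Named genes were the called members, the 3 largest rises and falls, the stalk genes and RPSA, paralogs beside their counterparts, the 3 highest and lowest levels per kilobase, up to 4 called genes per direction in each other list, and FAU and RACK1. Some genes of this rule are left out of the text and of the plot of fold changes. The members and lists were chosen with earlier results of these data known. RPS18, RPS21, RPS29, RPL37, RPL10A, RPL12, RPL11, RPL31, RPL9, RPL7A, DNASE1L1 and the pseudogenes were named after their values were seen, as were chosen the comparison of the libraries numbered 1, its relation to GC content (first examined on whole transcripts, with the same sign), the omission of RPS18 and RPS10 there, the set at 100 CPM or more and the 50% limit on sharing.

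Alternatives were RLE scaling, no scaling factor, TMM without ribosomal protein genes, no count filter, a filter of 5 CPM in 3 libraries, DESeq2 1.42.0, limma-voom 3.58.1, a block for the replicate number and leaving out each library. Added after seeing the data were pseudogene reads summed with the parent, omission of both libraries numbered 1, the ratio without 4 genes and coding length.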

Additional observations from a re-analysis of the deposited data

How the results depend on the processing

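The number of ribosomal protein genes lower was 4 with RLE scaling, 1 without a scaling factor, 3 with TMM factors computed without these genes, 7 without a count filter, 2 with the stricter filter, 6 with DESeq2 and 5 with limma-voom, and from 1 to 4 when 1 library was left out. The number higher was 1 without a count filter, 1 without both libraries numbered 1, and from 0 to 5 when 1 library was left out, the 5 without knockdown 1. Large subunit genes lower numbered 1 without a scaling factor, 1 without both libraries numbered 1, and 1 to 3 with 1 library left out. Small subunit genes lower numbered 1 with RLE scaling, 4 without a filter, 3 with DESeq2, 2 with limma-voom, 1 without both libraries numbered 1, and 0 to 1 with 1 library left out. Over all tested genes the number lower was 1045 with RLE scaling, 768 without a scaling factor and 1096 with TMM factors computed without the members. It was 1198 without a count filter and 931 with the stricter filter. With 1 library left out, 702 to 1141 of all tested genes were lower and 529 to 828 higher. The number higher was 1040 without a count filter and 679 without both libraries numbered 1. The difference in the ratio of large to small subunit reads was 0.0318 without RPS2, RPL8, RPS20 and RPL7A, which were chosen as genes that raised it. The difference between the subunit medians was 0.0185 to 0.0858 with 1 library left out. The cause of the other differences was not tested.

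Whether libraries of the same number were handled together is not given in the sources used here. Deviations from the group means correlated at 0.35, 0.23 and -0.12 for the same-numbered pairs, and control 3 correlated better with knockdown 2 (0.31). The deviations of the 3 libraries in a group are tied to each other, so these values cannot decide whether the numbers pair the libraries. With the replicate block 7 members were lower and 2 higher, 3 of the lower ones in the small subunit. Over all tested genes 1273 were lower and 1158 higher with this block.

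Values that were not called changed sign in some fits. Without a scaling factor RPL22L1 was 0.0167 and RPL36AL 0.0758. RPL36AL was 0.0287 with the stricter filter and 0.00119 with limma-voom. Without both libraries numbered 1, RPL22L1 was 0.0326, RPL26L1 0.0228 and RPS18 0.61. The median of the large subunit was 0.02 without a scaling factor and 0.02 without both libraries numbered 1. With 1 library left out, the ranges were -0.71 to 0.69 for RPL36A, -0.27 to 0.17 for RPL22L1, -0.25 to 0.12 for RPL26L1, -0.23 to 0.20 for RPL36AL, -0.0575 to 0.22 for RPS4X, -0.00138 to 0.55 for RPL7, -0.31 to 0.0314 for RPL22, -0.47 to 0.00671 for RPL39, -0.077 to 0.0815 for RACK1 and -0.55 to 0.45 for RPS18. Depth limits members with few reads, such as RPL36A (19 to 92 reads per library).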

Other observations

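Among the pseudogenes of ribosomal protein genes, 88 had enough reads to be tested, and 3 were lower and 3 higher after knockdown (edgeR, adjusted p under 0.05). Over all 14649 tested genes, 6.66% were lower and 6.27% higher, so such calls were not more frequent among the pseudogenes. Besides the copies of RPL10 and RPS18 already described, these were RPSAP52, RPL13AP20 and RPS20P14, named after their values were seen. RPSAP52, a pseudogene of RPSA that is transcribed antisense to HMGA2, held 14, 26 and 43 reads in controls and 92, 118 and 188 reads in knockdowns. All knockdowns lay above all controls, at 1.13 ± 0.518 and 5.81 ± 1.22 CPM (SD, n = 3), a log2 fold change of 2.35 (SE 0.36, adjusted p = 0.000349, edgeR). RPSA itself stood lower in all 3 knockdowns and was not called. RPL13AP20 held 33, 38 and 34 reads in controls and 108, 75 and 120 in knockdowns, with no overlap (log2 fold change 1.65, SE 0.33, adjusted p = 0.00307, edgeR). RPSAP52 and RPL13AP20 were called in every alternative fit that tested them. RPS20P14 stood at 23.1, 25.5 and 29.3 CPM in controls and 14.6, 15.1 and 20.9 in knockdowns (log2 fold change -0.62, adjusted p = 0.0262, edgeR), beside -0.52 for RPS20. With any 1 of control 2, control 3, knockdown 1 and knockdown 2 left out, RPS20P14 was not called. How many of these reads came from the pseudogene and how many from the parent or an overlapping gene was not tested.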
